A study of Rattus norvegicus with 10 samples.

Results

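The genes described here are 9 genes of the circadian clock (Nr1d1, Nr1d2, Per1, Per2, Per3, Dbp, Tef, Arntl and Cry1) and Cirbp, a cold-inducible RNA-binding protein gene, in mammary tumours of female Sprague-Dawley rats. They were found on the array through the RefSeq transcript that each probe names, which gave 11 probes of the 41012 on the array, 1 for each gene and 2 for Per3. Arntl is named Bmal1 in RefSeq and is called Bmal1 below. The 9 clock genes were named by function. Cirbp was chosen by its lower mean level in the Western-style group of these same tumours, so its difference between the diets is given as a description with no test. All 10 genes were chosen with earlier results of these tumours known. Of the 10, 8 passed the filter on dim probes (a signal marked well above background on 5 or more arrays), and Nr1d1 and Per3 did not.

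Pregnant rats were fed either control chow or a Western-style diet, labelled as rich in fat and poor in fibre and oligoelements, on gestational days 12 to 20 and again on postnatal days 1 to 21. Every daughter, in both groups, ate control diet from weaning on and received 1 intraperitoneal dose of 50 mg/kg of the alkylating carcinogen N-methyl-N-nitrosourea at the age of 3 weeks, so the labels set the groups apart by the diet of the dam alone. RNA came from tubular or papillary tumours at 110 days, with 5 tumours of daughters of Western-style diet dams (WD1 to WD5) and 5 of daughters of control diet dams (CD1 to CD5), each on 1 one-colour array. Whether tumours shared a dam or a litter is not stated in the labels, and the p-values measure only the spread between these tumours. No time of day is named in the labels for the removal of any tumour.

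The clock is a loop of transcription factors that runs in most cells, the mammary gland included. The proteins of Bmal1 and Clock bind E-boxes and switch on the Per, Cry, Nr1d, Dbp and Tef genes. PER and CRY proteins then inhibit that activation, while the nuclear receptors of Nr1d1 and Nr1d2 (REV-ERB alpha and beta) bind sites shared with the ROR receptors and repress Bmal1. DBP and TEF are bZIP factors that bind D-boxes in other clock genes and output genes. Bmal1 is therefore known to peak opposite in phase to Nr1d1, Dbp and Per3, and Cry1 to peak later than the Per genes. Cirbp is induced by mild cold, follows the daily rhythm of body temperature and is known to support the amplitude of the clock through transcripts that its protein binds.

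The regulatory letters through which this loop is known to work were looked for in RefSeq promoter windows of the GRCr8 build, each running from 250 bases before to 50 bases after a gene's start. Of the 10 genes, 9 matched a window, and Nr1d1 matched 2. On both strands, the E-box was searched as CACGTG, its variant as CACGTT, the D-box as TTANGTAA and the ROR and REV-ERB site as TAGGTCA. These letters do not overlap in the windows below. Of 33469 windows of this length, 6.42% hold CACGTG, 4.83% CACGTT, 2.24% TTANGTAA and 2.63% TAGGTCA. The windows of Nr1d1, Per2, Tef and Bmal1 held a match and are shown. Those of Nr1d2, Per1, Per3, Dbp and Cirbp held none, and Cry1 matched no window. Capitals mark the matches, and AACGTG is CACGTT read on the other strand. The 2 Nr1d1 windows (chr10:84231763-84232062, minus strand and chr10:84229405-84229704, minus strand) held CACGTT 174 bases and CACGTG 191 bases before their starts. That of Per2 (chr9:99496944-99497243, minus strand) held CACGTT 62 bases and TTANGTAA 192 bases before the start, that of Tef (chr7:115206577-115206876, plus strand) CACGTG 198 bases before it, and that of Bmal1 (chr1:176766078-176766377, plus strand) TAGGTCA 16 bases before it. A match is a description of the letters and not a measured binding site.
Nr1d1 first window: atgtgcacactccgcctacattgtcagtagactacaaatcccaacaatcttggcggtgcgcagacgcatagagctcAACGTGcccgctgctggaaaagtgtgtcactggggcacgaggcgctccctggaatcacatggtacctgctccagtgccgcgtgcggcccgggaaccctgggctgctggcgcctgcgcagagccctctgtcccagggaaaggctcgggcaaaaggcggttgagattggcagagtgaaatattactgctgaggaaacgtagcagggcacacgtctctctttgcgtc
Nr1d1 second window: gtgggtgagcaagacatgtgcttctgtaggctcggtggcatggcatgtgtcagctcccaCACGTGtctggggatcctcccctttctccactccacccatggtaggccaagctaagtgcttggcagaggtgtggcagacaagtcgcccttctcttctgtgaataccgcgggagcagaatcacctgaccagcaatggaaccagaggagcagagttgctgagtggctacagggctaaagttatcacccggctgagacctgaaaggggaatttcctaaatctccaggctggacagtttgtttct
Per2: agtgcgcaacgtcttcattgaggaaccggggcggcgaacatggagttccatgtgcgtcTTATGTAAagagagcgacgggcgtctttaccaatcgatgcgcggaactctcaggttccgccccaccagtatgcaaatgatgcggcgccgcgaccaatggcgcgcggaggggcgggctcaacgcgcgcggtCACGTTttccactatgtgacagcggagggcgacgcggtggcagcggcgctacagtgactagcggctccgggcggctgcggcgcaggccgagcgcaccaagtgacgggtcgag
Tef: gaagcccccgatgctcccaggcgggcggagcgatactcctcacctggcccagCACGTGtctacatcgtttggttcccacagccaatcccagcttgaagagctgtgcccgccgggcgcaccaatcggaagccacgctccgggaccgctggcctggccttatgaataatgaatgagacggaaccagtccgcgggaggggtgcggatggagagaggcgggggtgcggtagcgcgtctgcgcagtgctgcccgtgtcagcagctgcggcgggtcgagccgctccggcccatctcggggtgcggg
Bmal1: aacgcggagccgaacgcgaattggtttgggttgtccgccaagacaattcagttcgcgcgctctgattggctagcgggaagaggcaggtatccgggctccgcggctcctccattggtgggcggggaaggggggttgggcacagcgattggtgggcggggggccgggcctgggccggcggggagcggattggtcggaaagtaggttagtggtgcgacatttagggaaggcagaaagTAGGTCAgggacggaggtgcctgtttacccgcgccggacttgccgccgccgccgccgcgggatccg

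Levels are log2 processed signals minus the 75th percentile of the array, so 0 is the 75th percentile of that array and a difference of 1 is 2-fold. That percentile, called array brightness below, lay between 72.8 and 169.9 (median 98.6) in the Western-style group and between 85.0 and 225.5 (median 189.7) in the control group. Of the control arrays CD3 was dim, at 85.0, and the other control arrays lay at 188.3 or above. Brightness therefore moves with the diet group, and differences are also given with log2 brightness as a covariate (written "with brightness"). The arrays lay on 3 slides, each with both groups. Luminal epithelial markers checked the tissue: all 8 were measured, 6 with lower and 2 with higher means in the Western-style group (median difference -0.277). Among them the keratin genes Krt8 (-0.959) and Krt19 (-1.106) had an unadjusted p under 0.05, as did 15.5% of all genes tested. Neither passed in limma (adjusted p 0.231 and 0.213), and with brightness they were -0.36 and -0.548. The 2 with higher means were Krt18 (0.041, and -0.131 with brightness) and Elf5 (0.217, and 0.946 with brightness). With the diet group moved markers of other cells: all 8 fibroblast, all 4 measured T cell and all 7 macrophage markers had higher means in the Western-style group (median differences 0.749, 0.996 and 0.637), and all 7 measured cell cycle markers lower means (median -0.708). Their summed levels overlapped between the groups, as with 3.43 to 5.10 for T cells against 2.89 to 3.76. Basal markers had 3 lower and 1 higher mean of 4 measured (median -0.612), and both measured endothelial markers were higher (median 0.483). With brightness the medians were -0.245 for luminal, 0.652 for fibroblast, 0.612 for T cell and 0.511 for macrophage markers. They were -0.375 for cell cycle, -0.033 for basal and 0.098 for endothelial markers. Of the adipocyte markers only Lpl was measured, and Lep, Cidec and Pparg were not well above background on any array. The part of these cells in the clock differences was not tested, and in such bulk tissue fewer cells of a type and less RNA per cell cannot be told apart.

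The comparison of the diets asks whether the diet of the dam altered the clock in the tumours of the daughters. Tumours of the Western-style group had lower mean levels of 6 clock genes (Nr1d1, Nr1d2, Per1, Per3, Dbp and Tef) and higher mean levels of 3 (Per2, Bmal1 and Cry1). Nr1d1 and Per3 did not pass the filter. Of the 7 clock genes that could be tested, 4 had lower means, where 48.6% of all genes tested did so. Among the genes that could be tested, the means ran from 2.01-fold lower for Per1 and 1.92-fold lower for Dbp to 1.47-fold higher for Cry1. None of the 7 clock genes that could be tested passed limma with Benjamini-Hochberg adjustment over 16788 genes (adjusted p 0.181 to 0.779), and 0 of all genes did (percent called 0). At an unadjusted p under 0.05 stood 4 of the 7, all lower (Nr1d2, Tef, Dbp and Per1), where 15.5% of all genes did so, 7.71% in the lower and 7.8% in the higher direction. The 4 passed the filter on at least 4 control arrays, and a gene can pass it through the control arrays alone, so this count is a description and no support. The plot of the levels by tumour shows each value.

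**Figure D1:**
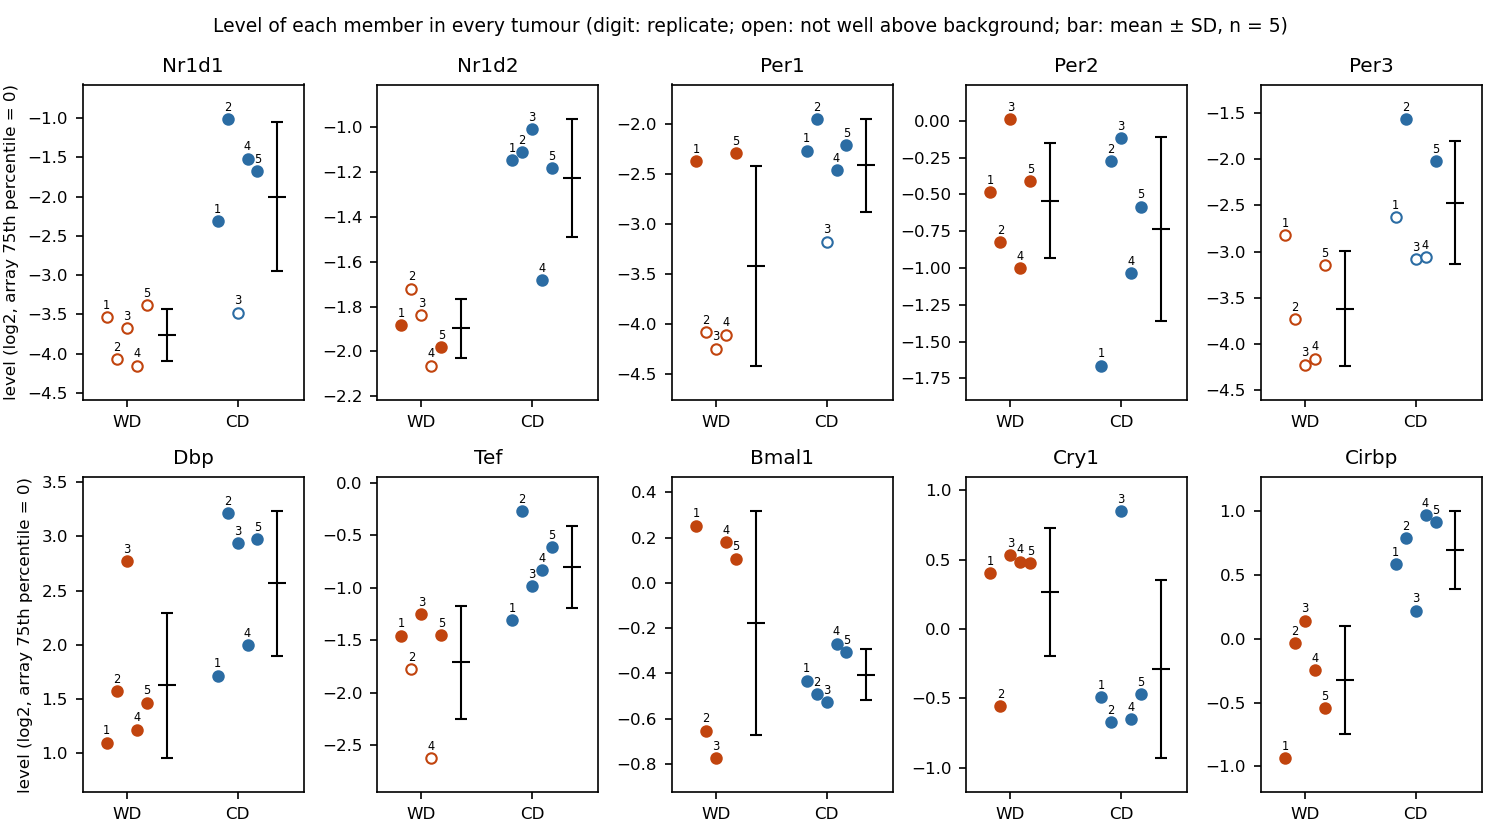
Level of each gene (vertical axis, log2 processed signal minus the 75th percentile of the array) in the tumours of the Western-style (WD) and control (CD) groups. Each point is 1 tumour with its replicate number, open where the probe was not well above background, and the bar gives mean ± SD (n = 5). The Nr1d2 and Cirbp groups do not overlap, Nr1d1 is open in all 5 WD tumours, and 3 of the Per1 points of the WD group are open near -4.

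Both REV-ERB genes had lower means in the Western-style group, and neither was called (Nr1d1 was not tested, and Nr1d2 did not pass). Nr1d1 (probe A_44_P175041), the nuclear receptor that represses Bmal1, was -3.53, -4.07, -3.67, -4.15 and -3.38 in WD1 to WD5 and -2.31, -1.01, -3.48, -1.52 and -1.68 in CD1 to CD5. Its signal cleared the background on 4 of 5 control arrays, all but CD3, and on 0 of 5 Western-style arrays. CD3 was as low as the Western-style tumours, and the other control tumours lay above all of them. For such a probe only a bound can be given: each Western-style array was taken at the measured level or at its detection floor (the dimmest probe that cleared the background on that array), whichever was higher, and on this scale Nr1d1 was at least 2.52-fold lower. That bound sets the group mean of -3.33 against the control mean of -1.999 ± 0.949 (SD, n = 5), in which CD3 stands at its measured level. It holds on this scale only, since brightness as a covariate, normexp and the deposited matrix gave smaller differences. On WD1 and WD5 Nr1d1 lay above the floor (-3.808 and -4.803) yet was not well above background, so the bound is approximate. The measured difference was -1.76, and it was -0.997 with brightness as a covariate, -0.24 with normexp background correction and -0.29 in the deposited matrix of normalized values.

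Nr1d2 (A_44_P395572), the second REV-ERB gene, was the only one of the 9 clock genes named at the start whose groups did not overlap, as was so for 3.66% of all genes (2.32% lower and 1.34% higher). Its levels were -1.88, -1.72, -1.84, -2.06 and -1.98 in WD1 to WD5 against -1.15, -1.11, -1.01, -1.68 and -1.18 in CD1 to CD5. All 5 Western-style tumours lay in a narrow band, and only CD4 came near it. The means were -1.90 ± 0.13 and -1.23 ± 0.26 (SD, n = 5 each), a difference of -0.67 ± 0.16 (SE), which is 1.59-fold lower, with a limma adjusted p of 0.181. It was -0.79 with brightness as a covariate and -0.69, -0.85 and -0.56 within slides 1, 2 and 3. With normexp it was -0.20 and in the deposited matrix -0.35. Only WD1 and WD5 among the Western-style arrays gave a signal that cleared the background, so the size is uncertain.

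Both D-box factor genes had lower means, and neither passed the adjusted threshold. Dbp (A_44_P280898), an output gene of the clock with a large daily swing in many tissues, was well above background on every array. It was 1.09, 1.57, 2.77, 1.21 and 1.47 in WD1 to WD5 and 1.71, 3.21, 2.94, 1.99 and 2.97 in CD1 to CD5. WD3 stood with the high control tumours, and the other Western-style tumours lay below every control tumour. The difference was -0.94 ± 0.37 (SE), or 1.92-fold lower (means 1.623 ± 0.670 and 2.565 ± 0.667, SD, n = 5 each; limma adjusted p 0.267). It was -1.26 with brightness, -0.70 with normexp and -0.78 in the deposited matrix, and -1.88, -0.96 and -0.39 within the slides, so its direction did not turn under these settings.

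Tef (A_43_P15280), the related thyrotroph embryonic factor gene, was -1.46, -1.78, -1.25, -2.62 and -1.45 in WD1 to WD5 against -1.31, -0.27, -0.99, -0.83 and -0.61 in CD1 to CD5. All Western-style tumours lay below the control mean, and only WD3 reached the range of the control tumours. Its means of -1.71 ± 0.54 and -0.80 ± 0.39 (SD, n = 5 each) differed by -0.91 ± 0.27 (SE), or 1.88-fold (limma adjusted p 0.188). The difference was -0.78 with brightness, -0.43 with normexp, and -1.35, -1.14 and -0.38 within the slides. On WD2 and WD4 the probe was not well above background.

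The Per genes encode inhibitors of the loop, and none of them was called. Per1 (A_44_P114034) was -2.37, -4.08, -4.25, -4.11 and -2.29 in WD1 to WD5 and -2.27, -1.95, -3.18, -2.46 and -2.21 in CD1 to CD5. WD1 and WD5 lay among the control tumours, and the low values were those of WD2, WD3 and WD4. These 3 and CD3 were the arrays on which the probe was not well above background, and they were also the 4 dimmest arrays of the series (72.8 to 98.6). The difference was -1.01 ± 0.43 (SE; limma adjusted p 0.292), but -0.135 with brightness as a covariate, -0.045 with normexp, -0.14 in the deposited matrix and 0.07 on slide 3.

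Per2 (A_42_P708593) was well above background on every array. It was -0.49, -0.82, 0.01, -1.002 and -0.41 in WD1 to WD5 against -1.66, -0.28, -0.12, -1.04 and -0.58 in CD1 to CD5, and the groups overlapped throughout. The difference was 0.19 ± 0.30 (SE; limma adjusted p 0.779), and -0.03 with brightness. It rested on CD1, the lowest tumour, without which it was -0.04. Per3, which encodes the third PER protein, was near background: its brighter probe (A_44_P196198) was well above background on CD2 and CD5 only (-1.57 and -2.03) and its other probe (A_43_P16143) on no array. The measured means of the brighter probe were -3.615 ± 0.617 and -2.47 ± 0.66 (SD, n = 5 each). By the approximate rule used for Nr1d1 it was at least 1.59-fold lower on this scale. However, 3 of the 5 control arrays entered that value at levels not well above background. The measured difference of -1.142 was -0.566 with brightness, -0.128 with normexp and -0.204 in the deposited matrix. The dimmer probe differed by 0.17 in the other direction.

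Bmal1 (A_44_P214873), the activator of the loop, was 0.25, -0.65, -0.77, 0.18 and 0.11 in WD1 to WD5 and -0.43, -0.49, -0.53, -0.27 and -0.30 in CD1 to CD5. The control tumours lay within a narrow band, whereas WD1, WD4 and WD5 lay above it and WD2 and WD3 below it. The means were -0.18 ± 0.49 and -0.41 ± 0.11 (SD, n = 5 each), and the difference was 0.23 ± 0.22 (SE; limma adjusted p 0.637). With brightness it was 0.515, and scaling to the array median, which moves the median of all genes to -0.24, gave -0.02.

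Cry1 (A_44_P374708), a repressor that acts late in the cycle, was 0.40, -0.56, 0.53, 0.49 and 0.48 in WD1 to WD5 and -0.49, -0.67, 0.85, -0.65 and -0.47 in CD1 to CD5. In each group 4 tumours lay close together and 1 lay with the other group, WD2 at the low and CD3 at the high level. The difference was 0.555 ± 0.317 (SE), or 1.47-fold higher (limma adjusted p 0.414). With brightness it was 0.19, and it was 0.84 without CD3. Within slides 1, 2 and 3 it was 0.595, 0.32 and 1.05.

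Of the clock genes, Nr1d1, Nr1d2, Per3, Dbp and Tef were lower and Bmal1 and Cry1 higher within all 3 slides, each slide comparing 1 or 2 tumours with 1 or 2. The plot of differences by processing sets the settings side by side.

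**Figure D2:**
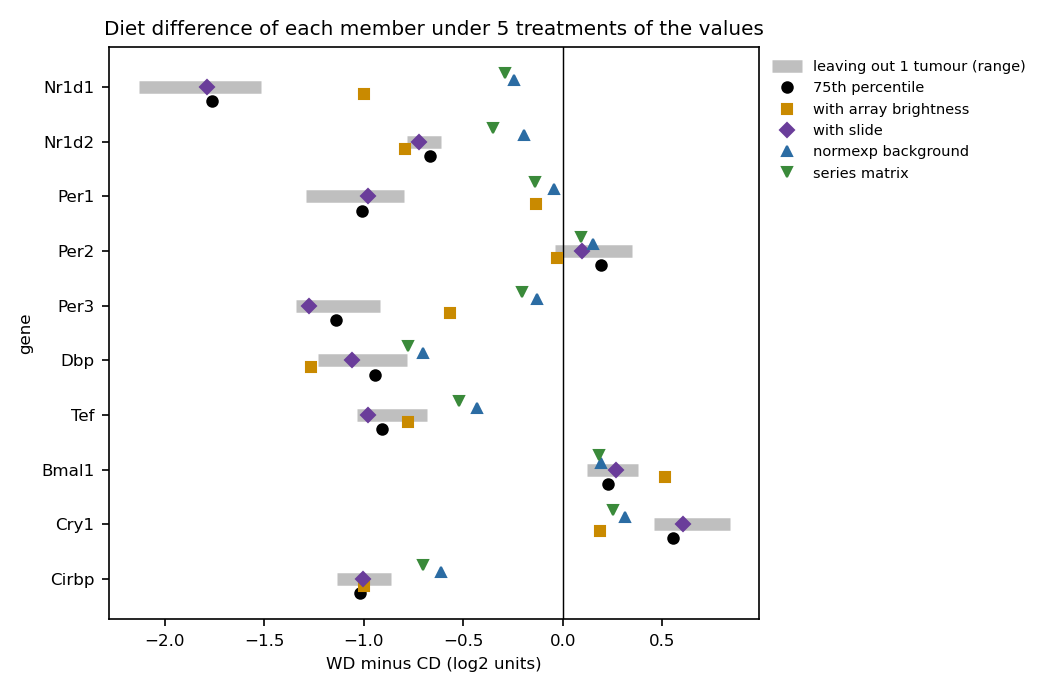
Difference in level between the Western-style and control groups (horizontal axis, log2 units) for each gene (vertical axis). Symbols mark 5 ways of treating the values and grey bars the range when 1 tumour was left out. The Nr1d1, Nr1d2, Per1, Per3, Dbp, Tef and Cirbp symbols all lie left of 0. Those of Nr1d1, Per1 and Per3 move most towards 0 with brightness, normexp and the deposited matrix, and Per2 lies around 0.

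Cirbp (A_44_P138790), which was chosen for this contrast, was -0.93, -0.04, 0.14, -0.25 and -0.54 in WD1 to WD5 and 0.58, 0.79, 0.22, 0.96 and 0.91 in CD1 to CD5. The groups did not overlap, with WD3 and the dim control array CD3 nearest to each other. The means were -0.32 ± 0.43 and 0.69 ± 0.30 (SD, n = 5 each), which is 2.02-fold lower in the Western-style group. The probe was well above background on every array, and the difference was -1.001 with brightness as a covariate, -0.61 with normexp, -0.70 in the deposited matrix, and -1.27, -0.62 and -1.32 within the slides.

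Rbm3, the other classical cold-inducible RNA-binding protein gene, was 2.08, 1.81, 2.41, 1.19 and 1.64 in WD1 to WD5 and 2.56, 2.77, 1.69, 2.19 and 3.20 in CD1 to CD5. The groups overlapped, through WD3 and CD3. It was 1.58-fold lower (difference -0.66 ± 0.30, SE; limma adjusted p 0.320), and the difference was -0.40 with brightness. Of 20 temperature-responsive genes listed (cold-inducible genes, heat shock proteins and their regulators) 17 were measured, 9 with lower and 8 with higher means, and the median difference was -0.003 against 0.012 for all genes tested. None passed in limma. Of the 17, 2 had an unadjusted p under 0.05, where 15.5% of all genes tested did so. They were Rbm3 and the cytosolic chaperone gene Hsp90ab1, which was 1.67-fold higher (0.74 ± 0.28, SE, limma adjusted p 0.253). The Hsp90ab1 difference was 0.31 with brightness and 0.23 as the mean of its probes. The heat shock factor gene Hsf1 (0.26, and 0.257 with brightness), the splicing factor gene Srsf5 (0.33) and the co-chaperone gene Dnaja1 (-0.405, and -0.559 with brightness) came next by p. Srsf5 was -0.02 with brightness.

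Other genes of the clock were read from the same fit. Of 30 further clock genes listed, 14 were measured, of which 9 had lower and 5 higher means in the Western-style group, with a median difference of -0.054. None passed in limma. Of the 14, 1 had an unadjusted p under 0.05, where 15.5% of all genes tested did so. It was Csnk1d, the kinase gene whose protein marks PER for degradation. Csnk1d was lower by a difference of -0.48 (means 0.041 ± 0.125 against 0.521 ± 0.247, SD, n = 5 each, limma adjusted p 0.204). Its groups did not overlap (-0.174 to 0.135 against 0.251 to 0.921), as was so for 3.66% of all genes (2.32% lower). Its difference was -0.42 with brightness, -0.299 with normexp and -0.259 in the deposited matrix. Clock, the partner of Bmal1, was well above background on 3 arrays only and was not tested (means -2.33 and -2.69). Npas2, which can replace Clock, differed by 0.22 ± 0.24 (SE; limma adjusted p 0.678; 0.19 with brightness). Cry2 was well above background on 2 arrays, at means of -2.96 and -2.95. The D-box repressor gene Nfil3 differed by -0.06 ± 0.38 (SE; limma adjusted p 0.953; -0.223 with brightness) and the E-box repressor gene Bhlhe40 by 0.32 ± 0.21 (SE; limma adjusted p 0.484; 0.117 with brightness). Nampt (-0.28), Wee1 (-0.39) and Csnk1e (0.32) also lay among the genes of smallest p, with differences of -0.296, -0.742 and 0.067 with brightness. As means of their kept probes they were -0.013, -0.243 and -0.112, so Csnk1e turned direction and the other differences were smaller.

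How the genes varied among tumours of the same group was not used to choose them. Levels were centred on the group means, and the 28 pairs of the 8 genes that passed the filter were compared by exact permutation within the groups (14400 orders, two-sided), with Benjamini-Hochberg adjustment over the 28 pairs. No pair passed, and 4 had an unadjusted p under 0.05. Per2 and Dbp had the largest value (r = 0.84, exact permutation p = 0.00618, adjusted p 0.164; Spearman rho 0.84, exact permutation p = 0.0135, adjusted p 0.189), and r was 0.78 without the tumours WD4 and CD1, which lay farthest from the median of Per2. WD3, CD2 and CD3 were high in both genes, and CD1, CD4 and WD4 low in both. Per2 and Tef had r = 0.70 (exact permutation p = 0.0234, adjusted p 0.164; rho 0.59, exact permutation p = 0.0940, adjusted p 0.543), which was 0.44 without WD4 and CD1.

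Bmal1 had negative correlations with Dbp and Nr1d2, of which neither passed the adjusted threshold. Dbp and Bmal1 had r = -0.62 (exact permutation p = 0.0156, adjusted p 0.164; rho -0.61, exact permutation p = 0.0243, adjusted p 0.227), which was -0.30 without WD3 and CD2 and so rests in part on them. Nr1d2 and Bmal1 had r = -0.49 (exact permutation p = 0.0229, adjusted p 0.164; rho -0.76, exact permutation p = 0.00431, adjusted p 0.121), which was -0.68 without WD4 and CD4, -0.14 with normexp and -0.03 with scaling to the array median. In the Western-style group the tumours with the highest Bmal1, WD1, WD4 and WD5, had the lowest Dbp (1.09, 1.21 and 1.47). With brightness removed as well, the Per2 and Dbp r was 0.82, the Per2 and Tef r 0.81, the Dbp and Bmal1 r -0.555 and the Nr1d2 and Bmal1 r -0.34. Slides hold 3 or 4 tumours, too few for a correlation within a slide. With slide effects removed the same values were 0.77, 0.84, -0.61 and -0.44. The Per2 and Dbp r was 0.555 with normexp and 0.875 in the deposited matrix. For Per2 and Tef these were 0.859 and 0.488, and for Dbp and Bmal1 -0.652 and -0.549.

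**Figure D3:**
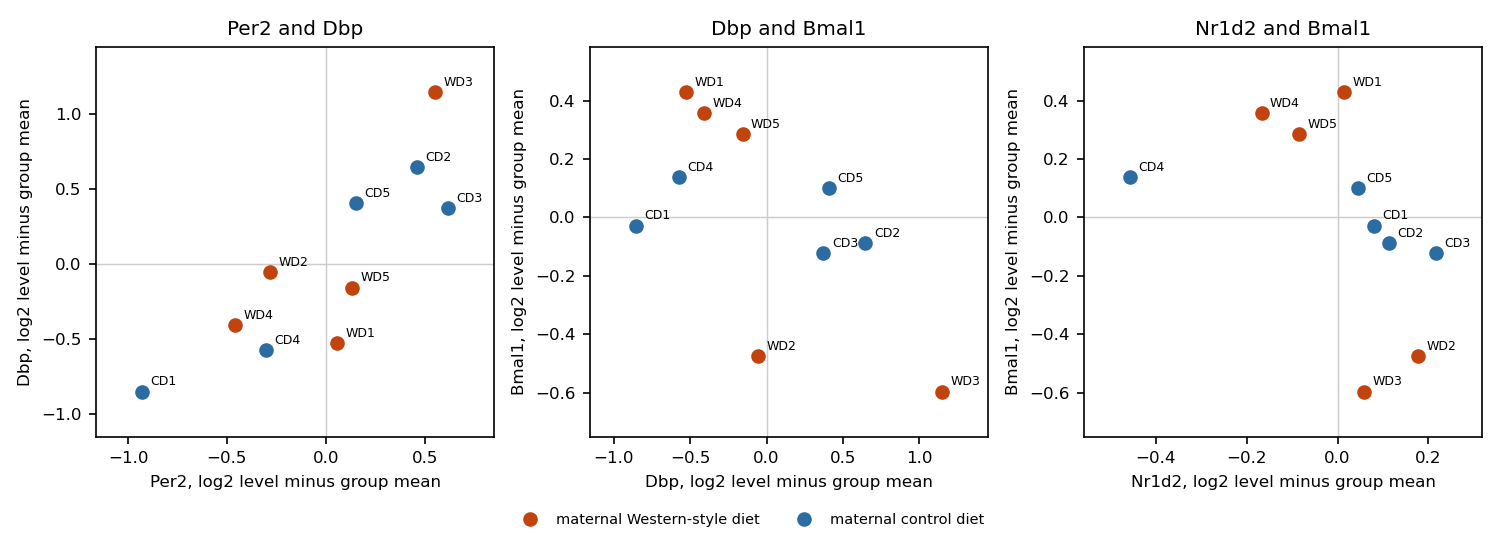
Levels of Per2 and Dbp, Dbp and Bmal1, and Nr1d2 and Bmal1 in the 10 tumours, each as the log2 level minus the mean of its diet group (both axes, log2 units). Points are tumours, coloured by the diet of the dam; r is 0.84 for Per2 and Dbp, -0.62 for Dbp and Bmal1 and -0.49 for Nr1d2 and Bmal1.

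Cirbp had no pair with an unadjusted p under 0.05: its r was 0.383 with Dbp, -0.226 with Nr1d2, -0.566 with Bmal1 and -0.555 with Cry1 (adjusted p 0.627 to 0.825 by exact permutation). Levels not centred on the groups carry the diet difference by which Cirbp was chosen, so their correlations are a description and no support. Without centring, 9 of the 28 pairs had an unadjusted p under 0.05 in a permutation test over all tumours. None of them passed (lowest adjusted p 0.121). Nr1d2 and Cirbp had r = 0.67 without centring and -0.226 with it. Per1 and Bmal1 had r = 0.63 (exact permutation p = 0.184), the only positive value above 0.2 between Bmal1 and another gene. Without WD1 and WD5, where Per1 was well above background, it was 0.15.

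**Figure D4:**
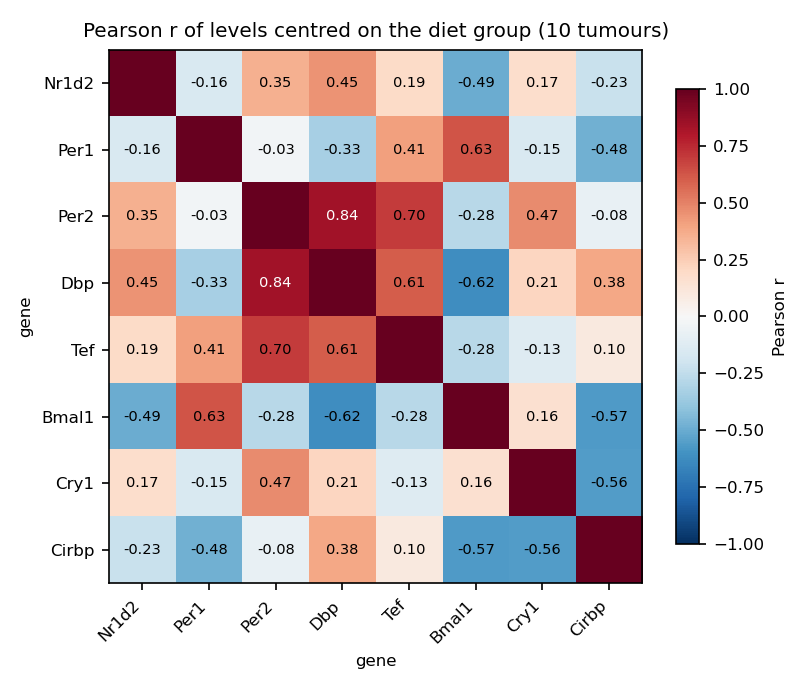
Pearson correlation of each pair of the 8 genes over the 10 tumours, with levels centred on the diet group; colour and printed number give r. Per2, Dbp and Tef have positive values with each other (0.61 to 0.84), and Bmal1 is negative with Nr1d2, Per2, Dbp, Tef and Cirbp. The Dbp and Tef value was 0.167 with normexp and 0.24 in the deposited matrix.

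Most of the clock genes varied widely between tumours of a group. The residual SD within the groups was 0.78 for Per1, 0.67 for Dbp, 0.56 for Cry1, 0.52 for Per2 and 0.47 for Tef, above 91.8%, 87.7%, 80.8%, 77.7% and 72.4% of all genes tested, whose median was 0.344. Cirbp and Bmal1 lay near the middle (0.37 and 0.36, above 55.7% and 53.4% of genes). Nr1d2 varied little (0.21, above 14.7%). The low Per1 values were those of the dim arrays given above, whereas Dbp, Cry1 and Per2 were well above background on every array.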

How the data were processed

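Gene expression was measured in 10 rat mammary tumours, 5 per maternal diet, with 200 ng of total RNA per array. Per the file headers, the authors read the arrays with Agilent Feature Extraction 11.5.1.1 (the submitters' processing notes name version 15.5), and the deposited processed signals are background-subtracted spot intensity values, not scaled between arrays. The deposited marks of 0 or 1 per spot give signals well above background and outliers. The deposited series matrix holds log2 values, whose ranks in each column were those of the median spot signals of the same array (Spearman correlation 1), and no tool for it is named in the labels.

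Processed signals of 43379 measuring spots were taken to log2, the 75th percentile of the array was subtracted, outlier spots were dropped and spots of a probe averaged. A probe was kept when a spot of it was marked well above background on 5 or more arrays (19755 of 41012 probes), and the brightest kept probe stood for a gene (16788 genes). RefSeq (GRCr8) named 17502 probes (42.7%). The array annotation is on another build, so no probe coordinates are given, and the coordinates printed are those of the GRCr8 promoter windows. Groups were compared in limma 3.58.1 (R 4.3.3), adjusted p under 0.05 over all genes, Western-style minus control, with normexp (offset 50) on the median signals because the files hold no mean signal. Correlations and plots used Python 3.11.15 and matplotlib 3.10.9. The fit was tested on simulated data. The number of arrays limits the precision.

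The genes, lists and tests were chosen with earlier results of these data known. Named genes are the 10 members with every probe, up to 5 genes of smallest p of each other list with 9 clock and cold genes fixed by name (Rora, Hlf and Bhlhe41 among them had no probe), and the genes of most like pattern. Alternatives were the background correction, scaling, filter, slide, brightness, replicate number, probe rule, the deposited matrix and leaving out tumours; scaling to the array median was added for the correlations after the data were seen.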

Additional observations from a re-analysis of the deposited data

Results flagged for a closer look

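In each diet group of 5 tumours the gap of the highest or lowest tumour to its neighbour was set against the range of the group, which was done for 20 groups (10 genes in both diets). Chance exceeds the limit of 0.71 in about 1 of 20 groups, and 4 did. The Cry1 level of WD2 was -0.56, where the other Western-style tumours lay between 0.40 and 0.53 (gap over range 0.882). The Cry1 level of CD3 was 0.85, where the other control tumours lay between -0.67 and -0.47 (0.868). The Dbp level of WD3 was 2.77 against 1.09 to 1.57 in the other Western-style tumours (0.717). The Nr1d2 level of CD4 was -1.68 against -1.18 to -1.01 in the other control tumours (0.743).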

How the results depend on the processing

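Under every alternative 0 clock genes and 0 genes in all passed the adjusted threshold. The count of all genes at an unadjusted p under 0.05 was 2605 (1310 higher, 1295 lower). It was 496 with normexp, 963 with brightness as a covariate and 1855 to 3285 without 1 tumour. Scaling to the array median gave 3641 (333 higher, 3308 lower). Without a filter it was 7055 of 36061 genes (5997 higher, 1058 lower), with a median difference of 0.343. The cause of these changes was not tested. Nr1d1, Nr1d2, Per3, Dbp, Tef, Cry1 and Cirbp kept their direction under every alternative run. Per1 was 0.071 on slide 3. Per2 was -0.058 with median scaling, -0.031 with brightness, -0.379 and -0.145 on slides 1 and 2, and -0.039 to 0.348 without 1 tumour. With median scaling, which moved the median of all genes to -0.24, Bmal1 was -0.023, Npas2 -0.029 and Klf9 -0.109, values still above that median. As means of their kept probes Klf9 was -0.224, Csnk1e -0.112 and Nampt -0.013. Nfil3 was 0.033 with normexp, 0.029 in the matrix, 0.081 with slide and -0.303 to 0.129 without 1 tumour; with brightness Srsf5 was -0.024 and Tsc22d3 -0.050. The median residual SD of the 8 kept genes was 0.289 with normexp and 0.187 in the matrix. Of member pairs 1 passed with brightness removed, Per2 and Tef (adjusted p 0.0136 by permutation, 0.0136 to 0.853 over its alternatives). There the residuals were permuted within the groups, which is approximate once brightness has been fitted. Without 1 tumour 0 to 1 pairs passed, the same pair without CD3 (adjusted p 0.0292 by exact permutation). Tumours with the same replicate number did not deviate together (correlations -0.02 to 0.16), and with the replicate block 0 genes were called (2680 at an unadjusted p under 0.05). Dim signal limits Nr1d1, Per3, Per1 and Nr1d2 most.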

Other observations

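Of 14 glucocorticoid-responsive genes listed, 10 were measured, 7 with higher and 3 with lower means in the Western-style group (median 0.09 against 0.01 for all genes tested), and none passed in limma. The growth inhibitor gene Ddit4 was 1.56-fold lower (-0.64 ± 0.28, SE, limma adjusted p 0.311, and -0.39 with brightness). It was the only one of the 10 with an unadjusted p under 0.05, where 15.5% of all genes tested had one. The leucine zipper gene Tsc22d3 differed by 0.50, the metallothionein genes Mt1 and Mt2A by 0.565 and 0.419, and Klf9, a glucocorticoid target that follows the clock in several tissues, by 0.14. With brightness these were -0.050, 0.120, 0.258 and 0.282, and Klf9 was -0.224 as the mean of its kept probes. Without WD3, Mt1 was 0.307 and Mt2A 0.169. Of 23 RNA-binding protein genes listed as relatives of Cirbp, 19 were measured, 9 lower and 10 higher (median 0.01), and none passed. Rbmx was 1.54-fold lower (-0.62 ± 0.22, SE; limma adjusted p 0.237; -0.591 with brightness), Rbm4 differed by -0.35 and Srsf3 by -0.27 (-0.488 and -0.385 with brightness), and Hnrnpu was higher by 0.531 ± 0.218 (SE; limma adjusted p 0.277; 0.236 with brightness and 0.233 as the mean of its probes).

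A mean was taken over Nr1d2, Per1, Per2, Dbp and Tef, each centred on its group means and divided by its SD. These genes did not all vary together (r = 0.838 for Per2 and Dbp, -0.329 for Per1 and Dbp). Among 8260 genes with a symbol, the closest to this mean in group-centred levels were Ighmbp2 (r = 0.90), Alkbh6 (0.89), Dhps (0.88), Fbln1 (0.87), Sobp (0.87) and Lzic (0.87). The most opposite were Lig4 (-0.93), Twsg1 (-0.92), Gabpa (-0.92) and Ube2v2 (-0.91). Above 0.9 stood 1 gene and under -0.9 stood 10. Cirbp was followed most closely by Bche (0.93), Aloxe3 (0.92), Kcnd1 (0.91), Aplf (0.90), Stap2 (0.90) and Baz2a (0.89), while Rbm3 ranked 1146 with r = 0.38. These values are picked from all 8260 genes over 10 tumours that share their arrays, and are a description.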
